A study of Mus musculus with 8 samples.

Results

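The microRNAs miR-132 and miR-212 were measured in mouse kidney 24 h after lipopolysaccharide (LPS) and after saline. The cluster was taken as every non-control spot whose annotated name was that of 1 of its 4 mature arms, mmu-miR-132-3p, mmu-miR-132-5p, mmu-miR-212-3p and mmu-miR-212-5p (the prefix for mouse is left out from here on). These are 4 of the 1881 miRNAs on the array, read by 8 of its 4415 probes. The study compared 2 groups on 1-colour Agilent mouse miRNA arrays. In the LPS-AKI model, septic acute kidney injury was brought on by an intraperitoneal dose of 10 µg LPS, the endotoxin of Gram-negative bacteria, per g. The sham model was given normal saline. Each group had 4 arrays, named here by the numbers in their titles: sham replicates 5, 6, 7 and 8, and LPS replicates 6, 10, 11 and 12. No genotype or further treatment is named in the labels, and for strain, sex and age the sources used here give nothing. Whether the 4 arrays of a group hold 4 animals is not stated either, and p-values therefore measure only the spread between these samples, which may be technical.

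A mature miRNA is cut from a hairpin in a longer primary transcript, and either arm of the hairpin can be loaded into Argonaute to repress messenger RNAs that match its seed, the bases 2 to 8. The hairpins of miR-132 and miR-212 lie next to each other and are processed from the same primary transcript, whose promoter is a known target of the transcription factor CREB. Both are best known from neurons, where they respond to activity, and miR-132 is also known as a miRNA induced by Toll-like receptor signalling in monocytes and macrophages, with acetylcholinesterase and the coactivator p300 among its described targets. LPS signals through Toll-like receptor 4.

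The sequences are shown because the comparison rests on telling apart 2 closely related 3p arms. RefSeq (GRCm38.p6) places the hairpin of miR-212 at chr11:75173388-75173478 and that of miR-132 at chr11:75173682-75173747, both on the plus strand with 203 bases between them. In the hairpins, written 5′ to 3′, the capitals mark the 2 arms:
Mir212: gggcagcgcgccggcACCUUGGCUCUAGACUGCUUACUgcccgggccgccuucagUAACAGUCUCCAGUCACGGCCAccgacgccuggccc
Mir132: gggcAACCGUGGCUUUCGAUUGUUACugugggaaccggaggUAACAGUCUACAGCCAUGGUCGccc

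In the mature arms from the same source, the capitals mark the seed:
miR-132-3p: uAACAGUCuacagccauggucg
miR-212-3p: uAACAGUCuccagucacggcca
miR-132-5p: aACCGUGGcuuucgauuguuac
miR-212-5p: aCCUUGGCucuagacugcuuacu

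The 3p arms share the seed AACAGUC and their first 9 bases, and no other of the 1608 array miRNAs with a RefSeq mature sequence has this seed. Over 22 positions counted from the 5′ end they are identical at 17. The 5 differences, with the base of miR-132-3p first, are A10C, C14U, U17C, U20C and G22A. The seeds of the 5p arms differ from that of the 3p arms and from each other, and no other array miRNA with a RefSeq sequence holds either.

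All probes of the 3p arms lie over the 3′ part of the miRNA, where every difference between the 2 arms falls. Bases are called complementary here only as A with T or U, or as G with C. In the probes, written 5′ to 3′ as DNA, the capitals mark the bases not complementary to the other 3p arm:
A_54_P1054, miR-132-3p: CgAccAtgGctgTaga
A_54_P1055, miR-132-3p: CgAccAtgGctgTag
A_54_P2616, miR-212-3p: TgGccGtgActgG
A_54_P2617, miR-212-3p: TgGccGtgActgGa

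Each of the 4 probes is complementary to its own arm without a mismatch and has 5 mismatches to the other arm, and no other RefSeq mature miRNA matches any of them in full. Some of these mismatches set G opposite U or T opposite G, which can still pair, and binding to the other arm was not measured. The miR-132-3p probes cover bases 7 to 22 and 8 to 22 of the miRNA, and the miR-212-3p probes bases 10 to 22 and 9 to 22. On mm9, the build of the array's probe map, the files place the miR-132-3p probes at chr11:74987232-74987246 and chr11:74987233-74987246 and the miR-212-3p probes at chr11:74986955-74986966 and chr11:74986954-74986966. Those of miR-132-5p are at chr11:74987195-74987209 and chr11:74987194-74987209, and those of miR-212-5p are listed as unmapped. These spans are 1 base shorter than the probes.

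The 8 arrays resembled each other in overall signal. Between 15.8% and 17.5% of non-control spots were well above background, and 336 to 375 miRNAs were detected per array. To count as detected, a miRNA needed a probe with over 50% of its spots carrying the scanner software's flag for a signal well above background. Levels are log2 signals, summed over the 2 probes of a miRNA, relative to the array's 75th percentile, which was 470 to 538 intensity units. All arrays were on 1 slide, with sham in row 1 and LPS in row 2, and an effect of the row cannot be told apart from that of LPS. Of kidney tubule markers, miR-192-5p, miR-194-5p, miR-204-5p and miR-30a-5p were detected on every array, and liver-specific miR-122-5p on none.

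MiR-132-3p was 2.63-fold higher in LPS kidneys (95% confidence interval 2.19 to 3.16, n = 4 per group). MiR-212-3p, from the neighbouring hairpin and with the same seed, fell to 0.734 of its sham level (0.659 to 0.818). The interval of miR-132-3p does not cover the treatment of background, on which the size of its rise depended. With normexp, described below, its log2 difference was 0.83, or 0.37 with an added offset, in place of 1.39. Both 5p arms were at background on all 8 arrays. The test, with limma, took in the 338 miRNAs that all 4 arrays of sham, of LPS or of both detected, and 2 of the 4 arms were among them. Of those tested, 40.2% were called at an adjusted p below 0.05, 14.8% as higher in LPS and 25.4% as lower. The median log2 difference over all 338 was -0.08.

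The summed signal of miR-132-3p was 41.1, 29.7, 33.1 and 29.6 intensity units on sham replicates 5, 6, 7 and 8. It was 82.1, 102, 93.2 and 90.3 units on LPS replicates 6, 10, 11 and 12. Sham replicate 5 was the highest of its group and LPS replicate 6 the lowest of its own, and the groups did not overlap. Relative to the 75th percentile, the log2 level was -3.55, -3.98, -3.95 and -4.08 on the sham arrays and -2.64, -2.40, -2.50 and -2.45 on the LPS arrays. The log2 difference was 1.39 ± 0.12 (SE), from -3.89 ± 0.23 to -2.50 ± 0.10 (SD, n = 4 per group), with adjusted p = 7.30e-05 by limma. It entered the test through the LPS arrays, and with no filter on detection its adjusted p was 0.00515 by limma. In this fit it was the 11th largest rise among the 338 miRNAs, an order that depends on its dim sham level, and groups did not overlap in this direction for 12.1% of them. In bulk tissue, more cells that hold a miRNA and more of it per cell cannot be told apart.

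MiR-132-3p was dim in sham kidneys, which limits how exact its fold change is. Its signal was detected by the rule above on 2 of 4 sham arrays, replicates 5 and 8, and on all LPS arrays. Probe A_54_P1054 read 24.5, 18.8, 18.6 and 18.0 units on sham replicates 5 to 8 and 50.5, 61.6, 57.2 and 54.8 units on the LPS arrays in the order above. Of its sham spots, 28 of 58 were well above background, against 59 of 59 LPS spots. Probe A_54_P1055, 1 base shorter, read 16.6, 10.9, 14.5 and 11.6 units in sham and 31.6, 40.5, 36.0 and 35.5 units in LPS. No sham array detected it, with 6 of 60 spots flagged, and in LPS 60 of 60 were. The lowest LPS array thus exceeded the highest sham array for both probes, a separation that 12.6% of the 633 tested probes showed. The spots of both probes were nevertheless flagged positive and significant against background on all sham arrays, 58 of 58 and 60 of 60 of them. Every mean of a probe in sham also exceeded the 99th percentile of the negative control spots of any array, which was 8.53 to 10.1 units.

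In the fit over these 633 probes, 38.9% were called, 14.2% as higher and 24.6% as lower. A_54_P1054 rose by 1.42 ± 0.11 log2 units (SE, n = 4 per group, adjusted p = 5.32e-05 by limma). For A_54_P1055, dim in all sham kidneys, only a bound holds: LPS exceeded sham by at least 1.85-fold. The fit's adjusted p of 1.80e-05 by limma (n = 4 per group) compares the LPS values with sham values that were all set to the floor, so it carries no spread between sham arrays. The bound sets the LPS mean against, on each sham array, the higher of the probe's own signal and the lowest signal among probes above background. The measured log2 means of this probe were -5.21 in sham and -3.85 in LPS.

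The size of the miR-132-3p rise depended on how background was treated, and its direction and call did not. With normexp, a model-based correction of the unsubtracted signals, the log2 difference was 0.83 (adjusted p = 1.11e-04 by limma), and with an added offset of 50 units, which by construction shrinks differences of dim probes, it was 0.37 (adjusted p = 3.68e-04 by limma, n = 4 per group). Subtracting the mean of each array's negative control spots gave 1.51. Both normexp without offset and the negative control subtraction were chosen after seeing the data.

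**Figure D1:**
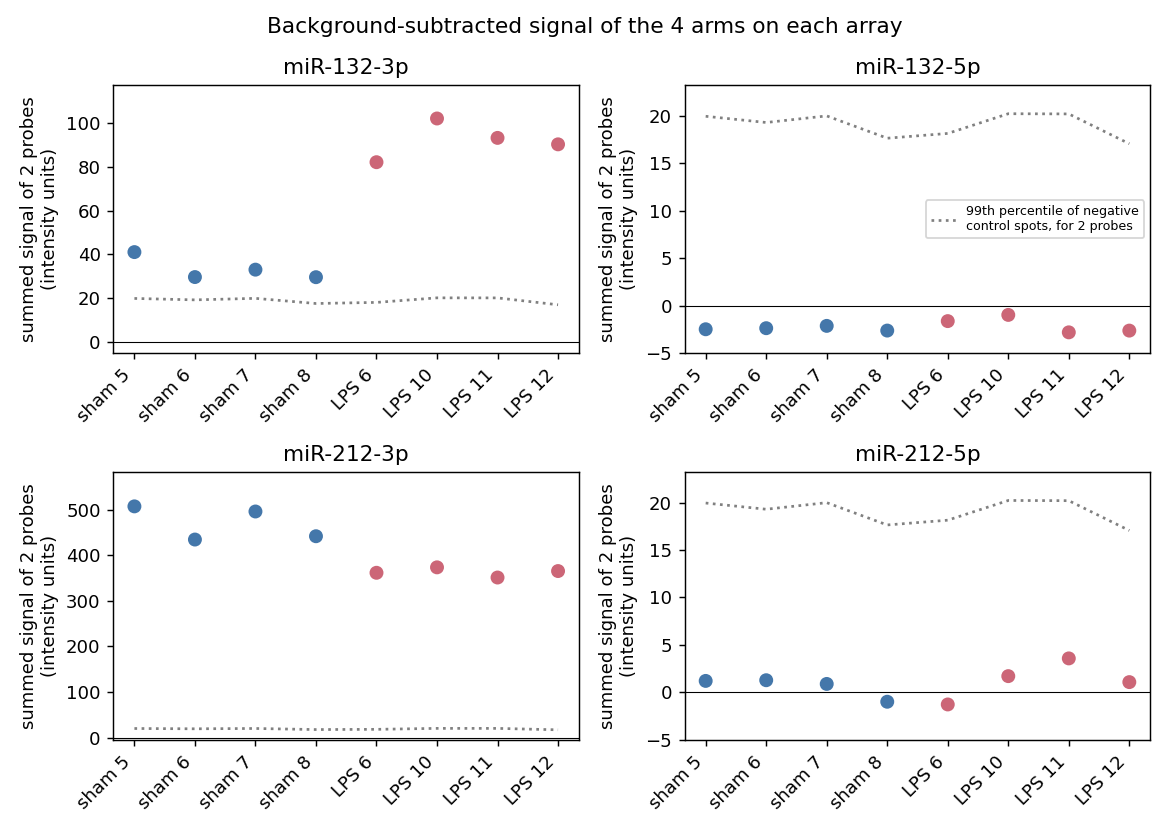
Summed background-subtracted signal of the 2 probes of each arm (y axis, intensity units, a separate scale per panel) on each of the 8 arrays (x axis; blue, sham; red, LPS), with the 99th percentile of the array's negative control spots counted once for each of the 2 probes as a dotted line. The 4 LPS arrays sit between 82.1 and 102 units for miR-132-3p, above all sham arrays, and between 351 and 373 units for miR-212-3p, below all sham arrays, while both 5p arms lie under the dotted line on every array.

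MiR-212-3p moved the other way, with a smaller change measured well above background. The summed signal was 507, 434, 496 and 442 intensity units on sham replicates 5, 6, 7 and 8, and 361, 373, 351 and 365 units on LPS replicates 6, 10, 11 and 12. Every LPS array was below every sham array, and the sham arrays varied more than the LPS arrays (SD 37.1 and 9.26 units). The log2 level was 0.07, -0.11, -0.04 and -0.18 in sham and -0.50, -0.53, -0.59 and -0.44 in LPS. The arm fell by 0.45 ± 0.07 log2 units (SE, adjusted p = 0.00166 by limma), from -0.07 ± 0.11 to -0.51 ± 0.06 (SD, n = 4 per group). Groups did not overlap in this direction for 24.9% of the tested miRNAs, and the fall of miR-212-3p was the 38th largest.

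Both probes of miR-212-3p fell. A_54_P2616 read 99.2, 84.3, 101 and 82.3 units in sham and 72.4, 70.3, 74.1 and 68.1 units in LPS. A_54_P2617, 1 base longer, read 408, 350, 395 and 359 units in sham and 289, 303, 277 and 297 units in LPS. Neither probe's groups overlapped, as was so in this direction for 26.1% of tested probes, and all their spots in use, 238 of 238, were well above background. The differences were -0.44 ± 0.08 and -0.45 ± 0.07 log2 units (SE, n = 4 per group, adjusted p = 0.00338 and 0.00173 by limma over the probes). Without any scaling between arrays the difference was -0.37 (adjusted p = 0.00479 by limma, n = 4 per group).

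**Figure D2:**
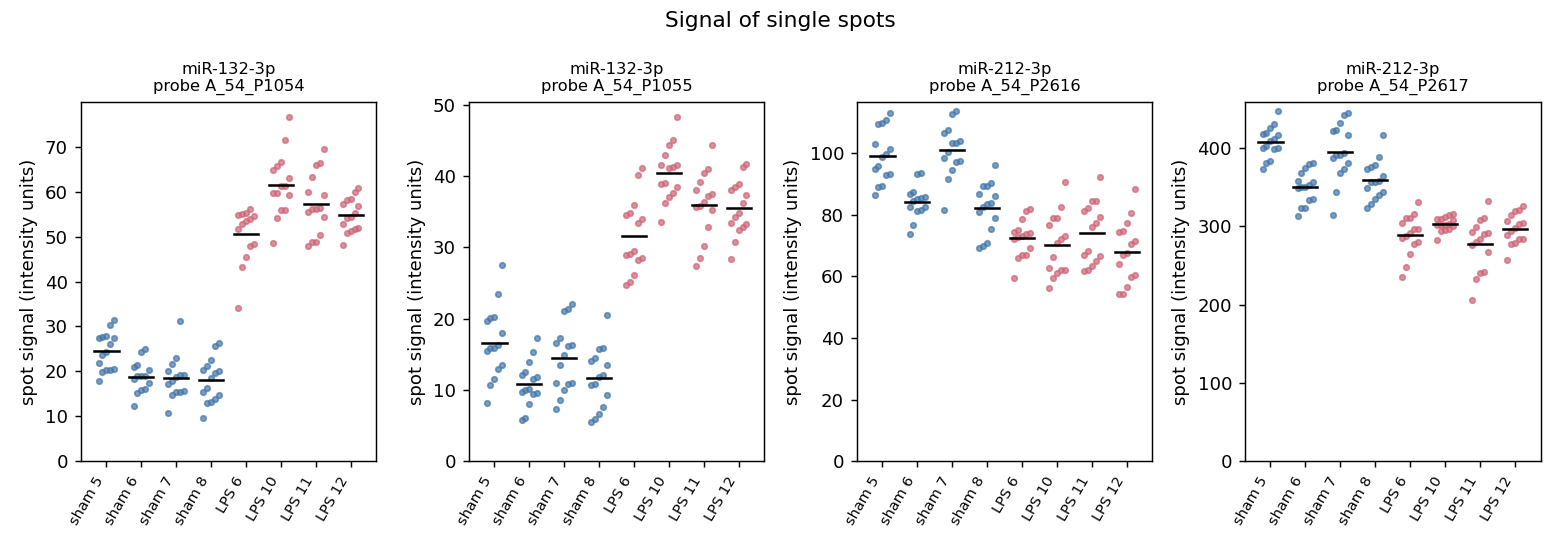
Signal of every spot not marked as an outlier (points, y axis in intensity units from 0, a separate scale per panel) for the 2 probes of miR-132-3p and the 2 of miR-212-3p on each array (x axis; blue, sham; red, LPS), with the mean of the spots as a black line. The spots of a probe on 1 array are technical repeats, and the array means of A_54_P1054 run from 18.0 to 24.5 units in sham and from 50.5 to 61.6 in LPS.

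The 5p arms, the other strands of the same hairpins, gave no measurable level. Of the spots in use, 0 of 238 for miR-132-5p and 0 of 235 for miR-212-5p were well above background on any array. The more lenient flag, positive and significant against background, was set for 10 of 238 and 41 of 235 of them. With that flag in the detection rule, neither arm was detected on any array either. Summed signals were -2.62 to -2.13 units in sham and -2.81 to -0.97 in LPS for miR-132-5p, and -0.98 to 1.28 in sham and -1.27 to 3.58 in LPS for miR-212-5p. Both ranges overlap between the groups. All sums of miR-132-5p were below 0, and no sum of either arm reached the 99th percentile of single negative control spots. No difference between groups or between arms of a hairpin was tested, because neither 5p arm passed detection. In the authors' deposited ratio table both arms carry on each array the value given to the blank spots, as do 1384 of its 1902 rows.

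The per-array difference between the 2 measured arms separated the groups widely. The log2 level of miR-132-3p minus that of miR-212-3p was -3.625, -3.87, -3.91 and -3.90 on sham replicates 5, 6, 7 and 8. It was -2.14, -1.87, -1.91 and -2.02 on LPS replicates 6, 10, 11 and 12. The highest sham array lay well below the lowest LPS array. The mean moved from -3.82 ± 0.13 in sham to -1.98 ± 0.12 in LPS (SD, n = 4 per group), a shift of 1.84 ± 0.09 log2 units (SE), or 3.58-fold. The 2-sided exact permutation p was 0.0286, the smallest that 4 against 4 arrays can give, and this was the only per-array difference tested. Any factor that multiplies all signals of an array cancels in this difference, while a background added to them does not. The absolute size of the difference compares different probes, so it does not give the relative abundance of the arms. With A_54_P1054 alone for miR-132-3p, the shift was 1.85 against A_54_P2616 and 1.87 against A_54_P2617. With A_54_P1055 alone, whose sham values were all set to the floor, it was 1.43 and 1.44.

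The same shift was seen within each column of the slide, which held 1 array of each group. From column 1 to column 4 the shift was 1.49, 2.00, 1.99 and 1.88 log2 units. The exact sign-flip p within columns was 0.125, the smallest that 4 columns allow, so the difference was not called with this block. Column 1, with sham replicate 5 and LPS replicate 6, had the smallest. For miR-132-3p alone the column differences were 0.92, 1.59, 1.44 and 1.63, and for miR-212-3p -0.57, -0.41, -0.55 and -0.25. With slide column as a block in the fit across miRNAs, both arms were still called (adjusted p = 0.00329 and 0.0136 by limma, n = 4 per group). With normexp and its offset the shift in the difference was 0.71, and without the offset 1.24.

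**Figure D3:**
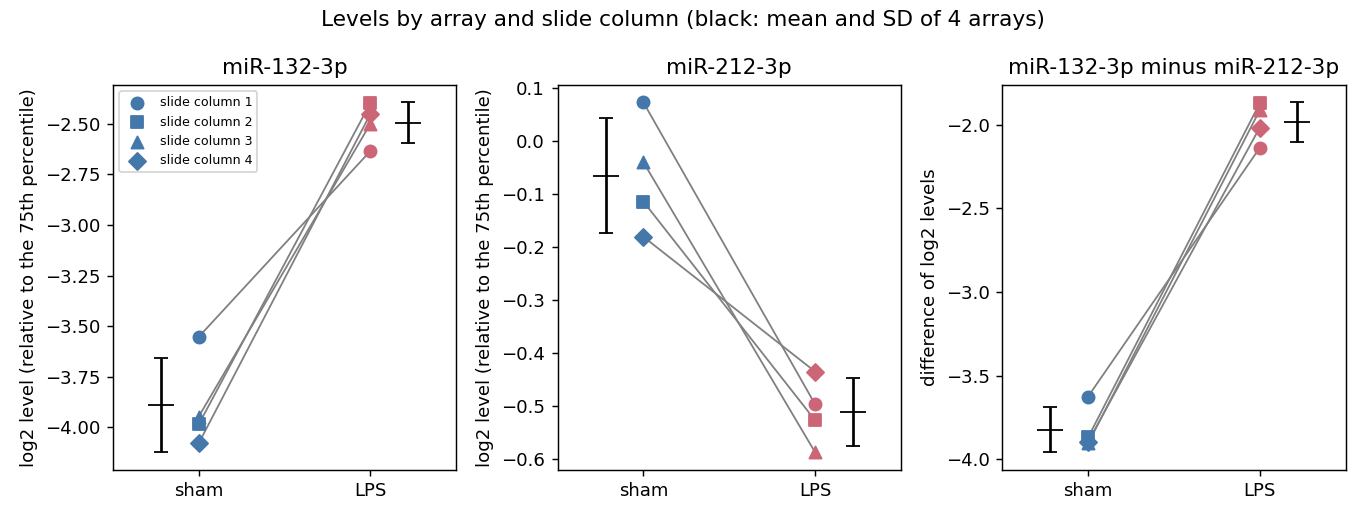
Log2 level of miR-132-3p (left) and miR-212-3p (centre) relative to the array's 75th percentile, and their difference (right), on sham and LPS arrays (x axis), with lines joining the 2 arrays of a slide column and black bars giving mean and SD of 4 arrays. All 4 lines rise for miR-132-3p, fall for miR-212-3p and rise for the difference, from -3.82 to -1.98 on average.

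Neighbouring hairpins elsewhere in the genome were read in the same way. RefSeq holds 291 of the 338 tested miRNAs, and among these 87 pairs come from different hairpins on the same strand with at most 10000 bases between them. In 35 pairs both miRNAs were called. In 34 of these both moved in the same direction, and miR-132-3p with miR-212-3p was the 1 pair with opposite calls. With only miRNAs detected on every array of both groups, miR-132-3p was not tested and 0 of 29 pairs with both called had opposite calls. The distance between the 2 log2 differences was 1.84, against a median of 0.11 over the 87 pairs, and was the largest. The next, miR-29a-3p with miR-29b-1-5p, had 0.92, with miR-29b-1-5p detected on 0 of 4 sham arrays. The distance of miR-132-3p and miR-212-3p ranked 1 in 29 of 30 alternatives that tested both, and ranked 2, at 0.71, with normexp and its offset. Alternatives that change only the scaling factor of an array, the filter, the variance model or the block leave this distance at 1.84. A lower floor does so too, and the rank in all of these is not separate support. Pairs share miRNAs and are not independent: the 34 pairs come from 6 groups, of which that of miR-17, miR-18a, miR-19, miR-20 and miR-92a and its paralog gives 22. The other groups were miR-192 with miR-194, miR-29a with miR-29b, miR-30c with miR-30e, miR-96 with miR-182, and miR-144 with miR-451a. The last, red-cell miRNAs, differed by 2.46 and 2.43 log2 units, with miR-144-3p detected on 2 of 4 sham arrays. No test was made of this count, and with a limit of 50000 bases a second pair, miR-7216-5p with miR-7218-5p, had opposite calls. With cyclic loess a second pair, miR-221-3p with miR-222-3p, did.

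**Figure D4:**
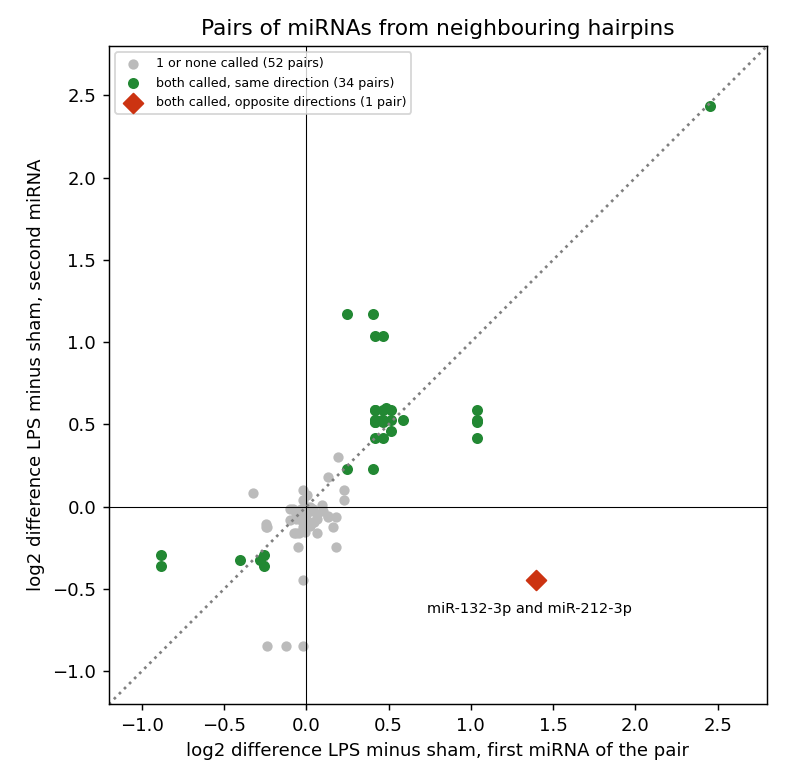
Log2 difference LPS minus sham of the first (x axis) against the second miRNA (y axis) of each of 87 pairs from hairpins on the same strand within 10000 bases, with the line of equal differences dotted. The 34 green pairs were called in the same direction, the 52 grey pairs had at most 1 call, and miR-132-3p with miR-212-3p (red diamond, 1.39 and -0.45) is the pair called in opposite directions.

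The next miRNA of the lists on this chromosome did not move with either arm. Mir22 lies 290 kb away on the same strand in RefSeq. MiR-22-3p differed by -0.11 ± 0.09 log2 units and miR-22-5p by 0.02 ± 0.06 (SE, n = 4 per group, adjusted p = 0.375 and 0.801 by limma), which fell within the spread between arrays.

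The miRNAs most like each arm over the 8 arrays were called in its own direction. Correlation over both groups favours this in advance. Among 306 miRNAs detected on all 8 arrays, the 5 most like miR-132-3p by Pearson correlation over the 8 arrays were miR-18a-5p (0.979), miR-223-3p (0.973), miR-21a-5p (0.968), miR-1892 (0.967) and miR-17-3p (0.966). All of them were called higher in LPS, by 1.04, 0.86, 2.22, 0.56 and 0.47 log2 units. MiR-223-3p is abundant in myeloid cells, miR-21a-5p is known to rise in injured kidney, and miR-17-3p and miR-18a-5p come from a cluster that promotes proliferation. For miR-212-3p they were miR-487b-3p (0.990), miR-6402 (0.987), miR-3963 (0.982), miR-874-3p (0.981) and miR-3968 (0.976), all called lower, by -0.63, -0.53, -0.25, -0.71 and -0.42. These correlations contain the group difference, by which any pair of miRNAs with clear calls resembles each other. After the group means were taken away they were -0.30 to 0.77 for the 5 like miR-132-3p and 0.78 to 0.92 for the 5 like miR-212-3p, over the same 8 arrays. The arms themselves had a correlation of -0.87 with each other over the 8 arrays and of 0.75 after the group means were taken away. All of these are descriptions of arrays that share a slide and a scaling.

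Of a list of other miRNAs described as induced by innate immune signals, most of those measured were higher in the same kidneys. The list was chosen with earlier results of these data known, so its counts are a description and not separate support. Of 10 listed, 7 were tested, 5 were called higher and 0 lower, with a median difference of 1.09 log2 units, beside 14.8% higher, 25.4% lower and a median of -0.08 over all tested miRNAs. MiR-155-5p, induced by Toll-like receptors in macrophages, was 3.21-fold higher, and miR-146b-5p, a brake on that pathway, 2.12-fold, the latter detected on 2 of 4 sham arrays. MiR-21a-3p, also called higher, was detected on 0 of 4 sham arrays. It and miR-146b-5p thus entered the test only through the LPS arrays, and the median of the list is the value of miR-146b-5p. MiR-21a-3p and miR-21a-5p, both called higher, are arms of the same hairpin and are not separate cases. MiR-146a-5p differed by 0.18 ± 0.09 and miR-9-5p by 0.33 ± 0.18 log2 units (SE, n = 4 per group, adjusted p = 0.166 and 0.173 by limma). MiR-155-3p, miR-147-3p and miR-187-3p were not detected on any array.

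Markers of cells that could hold this cluster were read beside it; miR-223-3p and miR-9-5p also stand in the innate immune list. Their calls are read beside the same 14.8% higher and 25.4% lower over all tested miRNAs. Of 5 leukocyte miRNAs 1 was called higher, miR-223-3p, and the summed level of the list, in multiples of the 75th percentile, was 2.04 to 2.91 in sham and 2.73 to 3.03 in LPS. Sham replicate 5, highest for miR-132-3p in its group, was also highest there for this sum (2.91, against 2.04 to 2.19 on the other sham arrays). LPS replicate 6, lowest for miR-132-3p in its group, was highest there for the sum (3.03). Of 5 neuronal miRNAs, miR-124-3p and miR-137-3p were not detected on any array and 3 were tested, of which miR-9-3p was called higher (0.47 ± 0.16 SE, n = 4 per group, adjusted p = 0.0465 by limma). Their summed level was 0.326 to 0.418 in sham and 0.337 to 0.471 in LPS. Both red-cell miRNAs were called higher, with a sum of 0.510 to 3.11 in sham and 2.01 to 13.7 in LPS. Of these, miR-144-3p was detected on 2 of 4 sham arrays and so entered the test only through the LPS arrays. The hairpins of both are neighbours, and they are not separate cases. Of 4 tubule miRNAs 3 were called lower, with a sum of 49.6 to 53.5 in sham and 43.6 to 49.6 in LPS, and neither of 2 endothelial miRNAs was called. Of 2 smooth muscle miRNAs, miR-145a-5p was called lower (-0.44 ± 0.08 SE, n = 4 per group, adjusted p = 0.00278 by limma) and miR-143-3p differed by 0.05 ± 0.08 (adjusted p = 0.591 by limma). The part of any of these in the changes of miR-132-3p and miR-212-3p was not tested.

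The authors' deposited ratio table, which centres each miRNA near 1, gives the same directions. For miR-132-3p it lists 0.724, 0.345, 0.603 and 0.506 in sham and 1.38, 1.71, 1.64 and 1.62 in LPS, and for miR-212-3p 1.27, 1.13, 1.29 and 1.07 in sham and 0.865, 0.889, 0.880 and 0.932 in LPS. These values follow the manufacturer's total signal per miRNA. For miR-132-3p that total holds 2 probes on 7 arrays and 1 probe, A_54_P1054, on sham replicate 6, where it was 5.16 in place of 8.14 for both. The lowest deposited value of miR-132-3p, 0.345, is on that array. The log2 difference was 1.59 ± 0.21 (SE, n = 4 per group, adjusted p = 0.00108 by limma) with the deposited values.

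**Figure D5:**
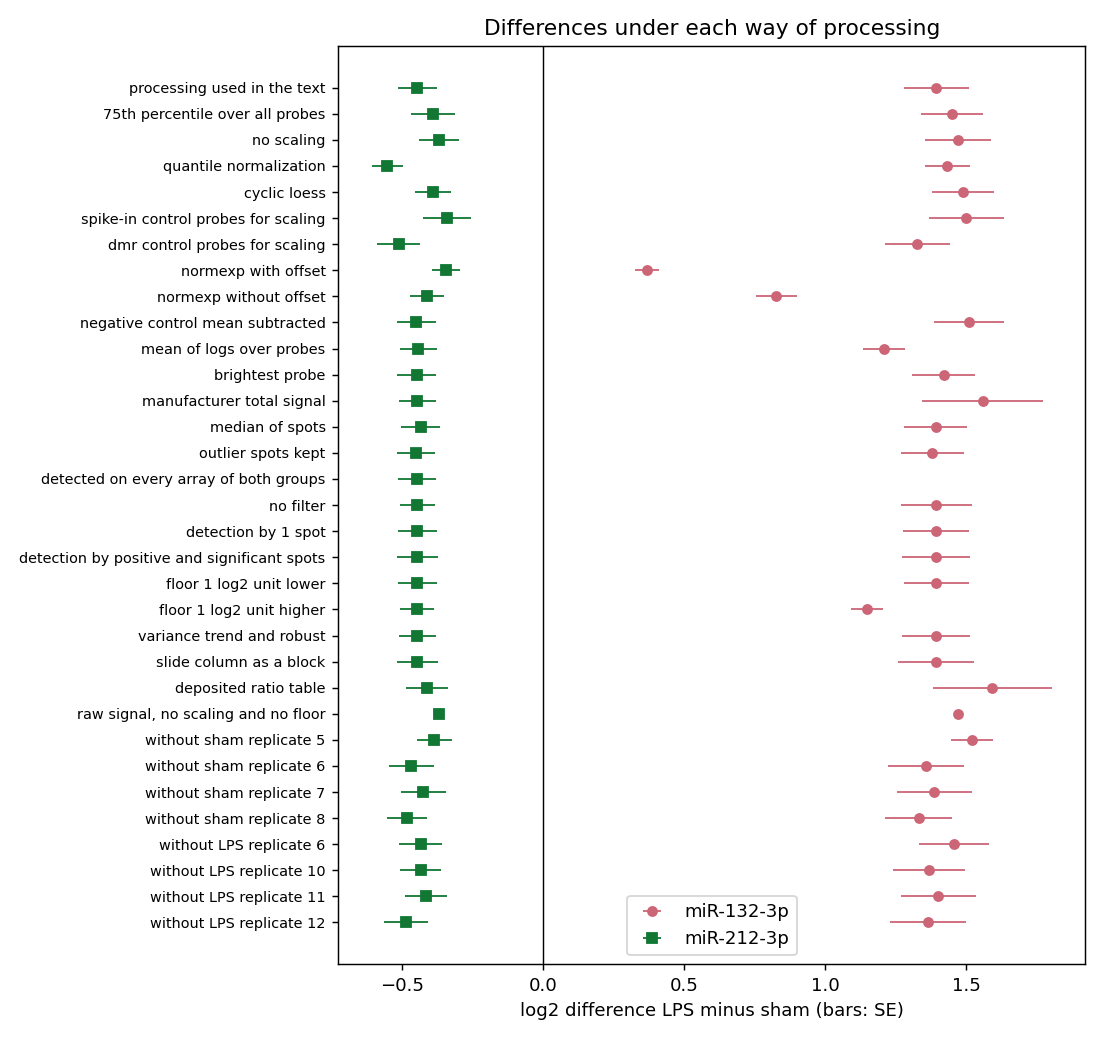
Log2 difference LPS minus sham (x axis, points; bars give the SE of the fit, with none for the raw signal) of miR-132-3p (circles) and miR-212-3p (squares) under each way of processing and with each array left out (y axis). MiR-132-3p lies between 0.37 and 1.59 and miR-212-3p between -0.55 and -0.34, so that neither crosses 0 in any row, and the smallest values of miR-132-3p come from the 2 normexp settings.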

How the data were processed

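The members and the lists of related miRNAs were chosen with earlier results of these data known. Total RNA from 30 mg of kidney was labelled with Cy3 (100 ng per array), per the labels' protocols. The spot intensities deposited by the authors come from Agilent Feature Extraction 12.0.3.1, per the submitters' processing notes, and per the file headers are background-subtracted with spatial detrending and not scaled between arrays. A ratio table deposited by the authors holds linear ratios per miRNA, with no statement of its scale. With an array factor and a miRNA factor taken out, 100% of its values for 383 miRNAs matched the manufacturer's total signal to 0.01 log2 units. Its direction is that of the signal, and the origin of the array factors stays unknown. Its column medians were 0.995, 1.06, 1.05 and 0.980 for sham replicates 5 to 8, and 0.958, 0.960, 1.01 and 1.03 for LPS replicates 6, 10, 11 and 12. It served only as an alternative.

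Outlier spots were dropped, the 15 spots of a probe averaged, and signals divided by the array's 75th percentile over the 551 probes detected on all 8 arrays. The 2 probes of an arm were summed, floored at -4.68 log2 units (the lowest detected value of each array, median of 8) and log2-transformed. A 2-group model without covariates was fitted by lmFit and eBayes of limma 3.58.1 (R 4.3.3), and 2-sided p-values were adjusted by Benjamini-Hochberg for the 338 tested miRNAs or 633 tested probes. The fit was tested on simulated data. The miRNAs named are the 4 members, those sharing the 3p seed and the 5 most like each measured arm. Named too are the list of innate immune miRNAs, the listed cell type markers, miR-22, and neighbouring pairs that the counts single out. These pairs were chosen after their values were seen. No non-control spot was saturated (0). The number of arrays limits the precision.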

Additional observations from a re-analysis of the deposited data

Results flagged for a closer look

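Of 14 groups of 4 arrays examined for the measured arms, their probes and their difference, 1 could not be judged because all its values were at the floor. In 1 of the others a single array stood apart, and by chance about 5% of groups hold such an array. For miR-132-3p minus miR-212-3p, sham replicate 5 was at -3.625, and the other sham arrays at -3.91 to -3.87. That array lies on the side of the LPS arrays, and without it the shift between groups was 1.91.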

How the results depend on the processing

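MiR-132-3p kept its direction and call in 33 of 33 alternatives (0.37 to 1.59) and miR-212-3p in 34 of 34 (-0.55 to -0.34). These alternatives are not independent. Those that change only the filter, the variance model or the block, or lower the floor, leave the differences at 1.39 and -0.45. For miR-132-3p they include the fit of probe A_54_P1055, for which only a bound holds. For the raw signal each call is an exact permutation p of 0.0286, the smallest that 4 against 4 arrays allow. That p is not adjusted for the number of miRNAs, unlike the limma values behind the other calls. With only miRNAs detected on every array of both groups, miR-132-3p was not tested. Leaving out each array gave 1.33 to 1.52 for miR-132-3p, -0.48 to -0.39 for miR-212-3p and 1.80 to 1.91 for their difference, whose exact p is then 0.0571, the smallest that 7 arrays allow. Within slide columns the difference was 1.84 with an exact sign-flip p of 0.125, the smallest that 4 columns allow. The count of changed miRNAs, 136, was 60 with no filter and 80 with slide column as a block, and 94 to 148 when each array was left out. Higher and lower calls numbered 50 and 86, but 55 and 53 with the percentile over all probes, 57 and 49 without scaling, 65 and 66 with cyclic loess, 61 and 42 with 9 control probes, and 43 and 114 with the 4 dmr control probes, the last chosen after seeing the data. The 9 control probes moved the median of all miRNAs from -0.08 to 0.02, and miR-212-3p to -0.34. Pairs called in opposite directions numbered 2 with cyclic loess and with a limit of 50000 bases, and 0 where miR-132-3p was not tested. No paired analysis was possible because the groups share only 1 replicate number; this concerns pairing by number, and the slide columns above pair arrays by position. The dimness of miR-132-3p in sham limits its fold change.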
